A study of Mus musculus with 8 samples.

Results

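The BCL2 family decides whether a cell opens the outer membrane of its mitochondria and dies by apoptosis. Its RNA was measured here in eosinophils sorted from the bone marrow and the small intestine of mice. The genes were taken by symbol from the deposited expression table, and all 10 named genes were found among its 38392 genes: 5 anti-apoptotic genes (Bcl2, Bcl2l1, Mcl1, Bcl2a1b and Bcl2a1d), 2 effectors (Bax and Bak1) and 3 BH3-only genes (Bcl2l11, Bid and Pmaip1). All libraries came from wildtype C57/BL6 mice, females by the study's account, with an age stated only as a range of weeks for its experiments as a whole. Bone marrow cells were sorted as CD11b+Ly6G-Ly6C-SiglecF+SSChi without bead selection or enzymes. Intestinal cells were sorted as CD11b+MHC-II-SiglecF+SSChi after the epithelium had been stripped, the tissue had been digested with collagenase at body temperature and CD11b+ cells had been enriched on beads, so tissue and handling cannot be told apart. There were 4 libraries per tissue, named here by their table columns (BM_1, BM_3, BM_4 and BM_5; SI_6, SI_7, SI_10 and SI_11), and p-values measure the spread between these libraries. A normalised count is a gene's number of reads over the library's size factor. A positive difference means a higher value in small intestine, on the log2-like scale of the deposited table, and comes with the standard error (SE) of limma, and a gene passed when its Benjamini-Hochberg adjusted p over all genes was under 0.05.

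Apoptosis through the mitochondria depends on a balance between proteins that bind each other. The effectors BAX and BAK form pores in the outer membrane and let cytochrome c escape, the anti-apoptotic proteins BCL-2, BCL-XL (Bcl2l1), MCL-1 and A1 (the Bcl2a1 genes) hold effectors and BH3-only proteins in check, and the BH3-only proteins BIM (Bcl2l11), BID and NOXA (Pmaip1) carry the death signal. Eosinophils and neutrophils are granulocytes that die soon after leaving the marrow unless cytokines keep them alive, and MCL-1 is a short-lived protein on which granulocytes are known to lean. RNA levels do not give protein levels, and many of these proteins are controlled after translation.

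The libraries were first set against markers of the labelled cell type. In bone marrow, the eosinophil granule genes Prg2 and Epx had 1831 ± 396 and 349.9 ± 40.2 normalised counts (mean ± SD, n = 4), whereas Mpo, the myeloperoxidase of neutrophil precursors, had 149860 ± 19352. The list of 10 neutrophil and precursor markers took 2.68 to 3.09% of the reads in bone marrow and 0.00314 to 0.00352% in small intestine, and all 10 passed as lower in small intestine. The 10 eosinophil markers took 0.0211 to 0.0373% in bone marrow and 0.215 to 0.268% in small intestine, and none was at 0 in either tissue. In small intestine 4 were higher, by mean normalised count Ccr3 (70.9 to 16351), Alox15 (159 to 19775), Il5ra (11.0 to 1107) and Siglecf (580 to 3076). The 5 lower ones were the granule genes Prg2 (147 in small intestine), Epx (20.6), Prg3, Ear1 and Ear2, and Ear6 did not pass. In bone marrow, genes of neutrophil precursors were therefore far above the eosinophil markers, against the label, and the groups are called bone marrow and small intestine libraries. Of 8 proliferation genes, all 8 were lower in small intestine (0.352 to 0.412% of the reads in bone marrow and 0.0191 to 0.0549% in small intestine). The 12 genes of the tissue dissociation response, which warm digestion is known to induce, were all higher (0.00744 to 0.00920% and 0.560 to 0.716%). Macrophage and dendritic markers were higher for 8 of 10 genes (0.00416 to 0.00444% and 0.173 to 0.198%), with Itgax and Csf1r the most abundant in small intestine and bone marrow. Epithelial markers were higher for 10 of 10 genes and uneven in small intestine, where SI_6 held 0.142%, SI_7 0.0568%, SI_11 0.0232% and SI_10 0.0217% of the reads, against at most 0.00159% in bone marrow. The part of these cells and of the digestion in the values below was not tested, and in bulk RNA fewer cells of a type and less RNA per cell cannot be told apart.

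**Figure D1:**
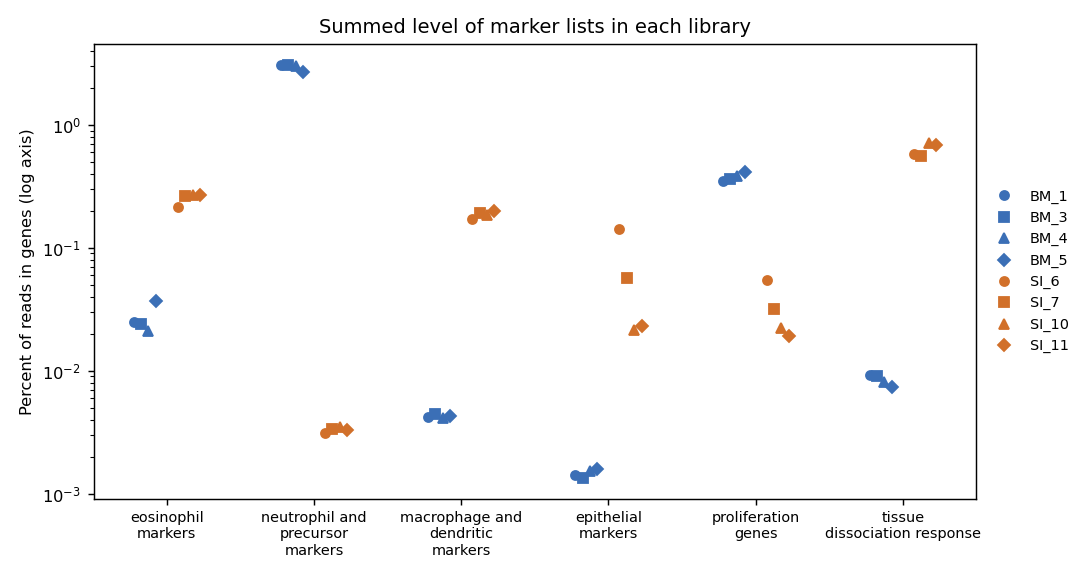
Percent of the reads in genes that each marker list took in each library (log axis), with bone marrow libraries in blue and small intestine libraries in orange. The neutrophil and precursor list lies between 2.68 and 3.09% in bone marrow, above the eosinophil list in the same libraries, and the epithelial list is highest in SI_6.

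Bcl2a1a, Bcl2a1b and Bcl2a1d are near-identical copies on mouse chromosome 9, and their sequences set how far their values can be read apart. Bcl2a1c, a less similar gene of the same name, had 0 reads in bone marrow and 0 to 2 in each small intestine library. It is not counted among the copies here. The first 60 coding bases of 3 copies (GRCm38, read 5′ to 3′ along each gene) are shown because they hold 6 of the 12 positions at which the copies differ, which are in capitals. Bcl2a1a lies at chr9:88957051-88957110 on the plus strand, Bcl2a1b at chr9:89199360-89199419 on the plus strand and Bcl2a1d at chr9:88731660-88731719 on the minus strand.
Bcl2a1a: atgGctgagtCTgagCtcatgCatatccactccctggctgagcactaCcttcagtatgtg
Bcl2a1b: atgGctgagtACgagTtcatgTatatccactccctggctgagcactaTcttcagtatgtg
Bcl2a1d: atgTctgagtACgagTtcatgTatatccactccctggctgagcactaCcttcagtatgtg
Over all 519 coding bases, Bcl2a1b and Bcl2a1d differed at 6 positions (98.8% identity), Bcl2a1a and Bcl2a1d at 7 (98.7%) and Bcl2a1a and Bcl2a1b at 11 (97.9%). Bcl2a1b is told from Bcl2a1d by G4T, T48C, A94C, G312A, C381G and T490A (the base of Bcl2a1b first, positions counted from 1 at the start codon). Stretches as long as the shortest reads were searched in all transcripts. Of the stretches of 75 bases in the longest transcript, 68.4% of those of Bcl2a1b and 67.6% of those of Bcl2a1d also occur in another gene, as do 55.2% of those of Bcl2a1a. Bcl2a1b also shares 401 of its 817 exon bases with the same-strand transcript Gm29094, which had 1 read in all, in SI_6 (a normalised count of 1.09). How reads with several matches were counted is not given in the sources used here, so the values of single copies are uncertain and the sum of the copies is given beside them. No stretch of this length in Mcl1, Bcl2l1, Bcl2l11 or Pmaip1 occurs in another gene. Among the other members, 23.7% of the stretches of Bid (from its opposite-strand neighbour Bcl2l13), 14.1% of Bak1, 11.7% of Bax and 5.96% of Bcl2 do.

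Promoter windows of RefSeq (GRCm38.p6, 250 bases before to 50 after each start site) were found for 9 of the 10 members and for Bcl2a1a, with 13 windows in all. Pmaip1 had no entry. Binding motifs for 6 factors were searched on either strand, and were chosen with the promoters in view: GAGGAAGT for PU.1, GTAAACA for FOXO factors, TGACTCA for AP-1, TGACGTCA for the cAMP response element, and the serum response element and the NF-kappaB motif, each of 10 letters with free positions. The stretches below come from Bcl2a1a, which is no member, and from the members whose RNA differed most and that hold a match. In each, 1 match is in capitals. The NF-kappaB match of Mcl1, at -28 from the start site, lies in the same stretch and is left in lower case. They lie at chr9:88956746-88956850 (Bcl2a1a, plus strand), chr9:89199055-89199159 (Bcl2a1b, plus strand), chr9:88731920-88732024 (Bcl2a1d, minus strand), chr3:95658653-95658722 (Mcl1, plus strand) and chr2:128125788-128125870 (Bcl2l11, plus strand).
Bcl2a1a: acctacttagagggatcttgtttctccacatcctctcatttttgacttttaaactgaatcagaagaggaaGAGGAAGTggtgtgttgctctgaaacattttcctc
Bcl2a1b: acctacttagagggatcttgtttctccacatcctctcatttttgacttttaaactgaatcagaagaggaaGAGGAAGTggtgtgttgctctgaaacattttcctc
Bcl2a1d: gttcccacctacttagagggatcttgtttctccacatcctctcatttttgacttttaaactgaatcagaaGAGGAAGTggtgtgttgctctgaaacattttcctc
Mcl1: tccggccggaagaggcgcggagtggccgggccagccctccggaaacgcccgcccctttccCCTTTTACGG
Bcl2l11: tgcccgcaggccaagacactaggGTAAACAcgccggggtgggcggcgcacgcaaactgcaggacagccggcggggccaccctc
The 105 bases of Bcl2a1a and Bcl2a1b were identical, and those of Bcl2a1d differed from them by a gap of 6 bases before the motif, with 0 differences over the other 99 aligned bases. The PU.1 letters stood in the windows of Bcl2a1a, Bcl2a1b, Bcl2a1d and Bak1 and in 3.20% of 32851 mouse promoter windows. The pattern like the serum response element was in Mcl1 (0.262% of all windows), with C at its free position. Because the pattern was chosen with this promoter in view, that share does not measure how rare such a match is. The FOXO motif was in Bcl2l11 (3.65%) and the NF-kappaB motif in Mcl1 and Bcl2l1 (1.63%). AP-1 (5.20%) and the cAMP response element (1.79%) were in 0 of the 13. The Bak1 match lies on the opposite strand at -22 from the start site. Whether any of these factors binds at these letters was not tested.

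Genes with the same role did not move as a block. Of the 10 members, 6 were higher in small intestine (Pmaip1, Bcl2a1b, Bcl2a1d, Bcl2l11, Mcl1 and Bcl2), 2 were lower (Bid and Bak1) and 2 did not pass (Bcl2l1 and Bax). Across all 38392 genes, 34.9% passed, 22.0% as higher and 12.9% as lower. All 10 members had a mean of at least 10 reads, and among the 16215 genes covered that well 63.1% passed, 34.6% as higher and 28.6% as lower. The members' 8 calls are to be read against this second share. The members were chosen with earlier results of these data known, which limits this comparison and that of the medians below. For the same 8 members the bone marrow and small intestine libraries did not overlap, as for 34.3% of all genes and 67.4% of the well-covered ones. The median difference of the members was 1.85, beside 0.37 over all genes and 0.12 over those with at least 10 reads, and their median absolute difference was 2.45, beside 0.73 and 1.14. Scaling moved the zero line. With each library centred on its median over all genes, the median difference of all genes was -0.53 and 29.5% of the calls were higher, against 63.2% as deposited, 45.8% after quantile normalisation, 49.6% on RPM (reads scaled to the same total) and 46.8% among genes with a mean deposited value of at least 5. Changes of under 1 on the log2 scale therefore depend on the scaling, and this touches Bcl2, Bcl2l1 and Bax. The other 7 members kept their direction and stayed past the threshold under all 15 other settings.

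**Figure D2:**
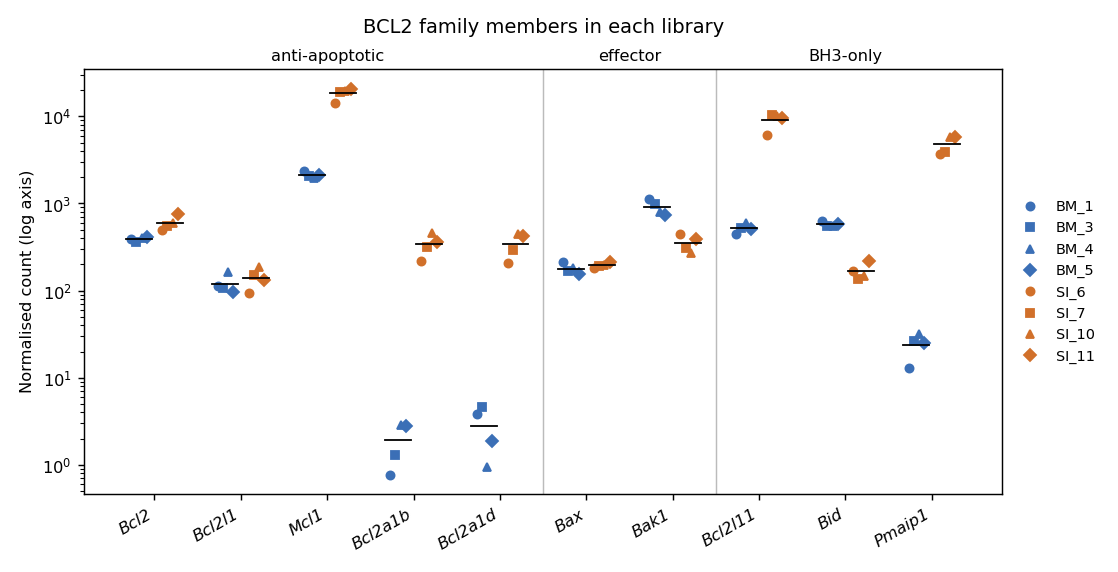
Normalised count of each member in each library (log axis), bone marrow in blue and small intestine in orange, with a black line at the mean of each group. Mcl1, Bcl2a1b, Bcl2a1d, Bcl2l11 and Pmaip1 are higher in every small intestine library, Bak1 and Bid are lower in every one, and the groups of Bcl2l1 and Bax overlap.

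Mcl1 was the most abundant member in either tissue. Mcl1 (ENSMUSG00000038612, chr3:95658788-95663176), which encodes the short-lived guardian of granulocytes, had 2362, 2066, 1935 and 2138 normalised counts in BM_1, BM_3, BM_4 and BM_5. In SI_6, SI_7, SI_10 and SI_11 it had 14384, 19079, 19422 and 20795. Every small intestine library was several times above every bone marrow library, and SI_6 was the lowest of them. The ratio of the means was 8.67, and the difference was 3.10 ± 0.19 (adjusted p = 9.06e-06). Per length, as TPM (reads per exon base of a gene, scaled to the same sum in every library), Mcl1 went from 81.2 ± 7.75 (SD, n = 4) to 848 ± 155, from rank 627 to rank 68 among all genes by mean level.

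The A1 copies were close to silent in bone marrow. Bcl2a1b (chr9:89199209-89207827) had 1, 2, 3 and 3 reads in the bone marrow libraries, which are 0.766, 1.30, 2.87 and 2.79 normalised counts, and 216, 313, 461 and 364 normalised counts in SI_6, SI_7, SI_10 and SI_11. Bcl2a1d (chr9:88723285-88731914) had 5, 7, 1 and 2 reads in bone marrow, or 3.83, 4.56, 0.957 and 1.86 normalised counts, and 208, 291, 442 and 423 in small intestine. For either copy, the groups were far apart and SI_6 was again the lowest small intestine library. Bcl2a1b differed by 6.09 ± 0.30 (adjusted p = 2.53e-06) and Bcl2a1d by 5.85 ± 0.34 (5.83e-06). As ratios of reads, with exact 95% intervals that cover counting error only, Bcl2a1b was 187-fold higher (98.2 to 409.9) and Bcl2a1d 113-fold (68.3 to 203). A further copy, Bcl2a1a, which is no member of the list, had 0 to 7 reads in bone marrow and 205 to 422 normalised counts in small intestine, a difference of 6.13 ± 0.48 (adjusted p = 2.65e-05). Summed over the 3 copies, bone marrow libraries had 7.66, 10.4, 3.83 and 5.58 normalised counts and small intestine libraries 629.8, 836, 1315 and 1209. The sum was 138-fold higher in small intestine (95% interval 99.5 to 197). If reads with several matches were dropped in the counting, they are missing from this sum too.

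Bcl2 and Bcl2l1, the founding guardians of the family, moved little. Bcl2 (chr1:106538178-106714274) had 386, 361, 404 and 408 normalised counts in bone marrow and 490.1, 548, 604 and 749 in SI_6, SI_7, SI_10 and SI_11. The groups did not overlap, but the gap between BM_5 and SI_6 was small beside the spread of the small intestine libraries. Its difference of 0.60 ± 0.20 passed narrowly (adjusted p = 0.0449), and it turned to -0.30 when each library was centred on its median over all genes (adjusted p = 0.627). It also missed the threshold on RPM (0.33, adjusted p = 0.0652), after centring on the genes with at least 10 reads (0.53, 0.145), and without BM_1 (0.0921), BM_3 (0.0859) or BM_4 (0.0806). Bcl2l1 (chr2:152780668-152831728), which encodes BCL-XL, had 114, 107, 163 and 95.8 normalised counts in bone marrow and 92.8, 153, 185 and 132 in small intestine. These groups overlapped, with SI_6 the lowest library of all. Its difference was 0.21 ± 0.27 (adjusted p = 0.564) as deposited, and was -0.69 after median-centring and -0.041 on RPM, where it did not pass either. A difference between the tissues was not detectable for Bcl2l1 with 4 libraries each.

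Within a library, the scaling cancels, and the make-up of the anti-apoptotic RNA can be compared per length. Mcl1 made up 89.3% ± 1.52 (SD, n = 4) of the summed TPM of the 5 anti-apoptotic members in bone marrow and 85.8% ± 2.30 in small intestine. Its ranges touched (87.1 to 90.5% and 82.8 to 87.9%). What changed was the remainder. Bcl2 went from 6.14% ± 0.56 to 1.04% ± 0.11 and Bcl2l1 from 3.79% ± 1.12 to 0.483% ± 0.0864. Bcl2a1b went from 0.348% ± 0.200 to 6.50% ± 1.18 and Bcl2a1d from 0.461% ± 0.275 to 6.16% ± 1.19. For these 4 genes the shares did not overlap between the tissues in any library, and the next share after that of Mcl1 was held by the A1 copies in small intestine libraries and by Bcl2 in bone marrow libraries, for this sum and these lengths. Dividing by the longest transcript in place of all exon bases raised the share of Bcl2l1 in bone marrow to 6.46% and that of Bcl2 to 7.46%, with the same order of the tissues. Bcl2l1 was then above Bcl2 in BM_4, where the ratio of Bcl2 to Bcl2l1 was 0.886. The share of Mcl1 was then 85.3% in either tissue, so its small difference depended on the length used. With Bcl2a1a and Bcl2l2 added to the sum, a choice made after the data were seen, the order was the opposite. Mcl1 then stood at 76.1% in bone marrow and 80.4% in small intestine. Bcl2l2 (14.5%) in place of Bcl2 was next to Mcl1 in bone marrow. If reads with several matches were dropped in the counting, the shares of the A1 copies are too low and that of Mcl1 is too high. Of the stretches of 75 bases, 68.4% of Bcl2a1b and 67.6% of Bcl2a1d occur in another gene, but no stretch of Mcl1 does.

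**Figure D3:**
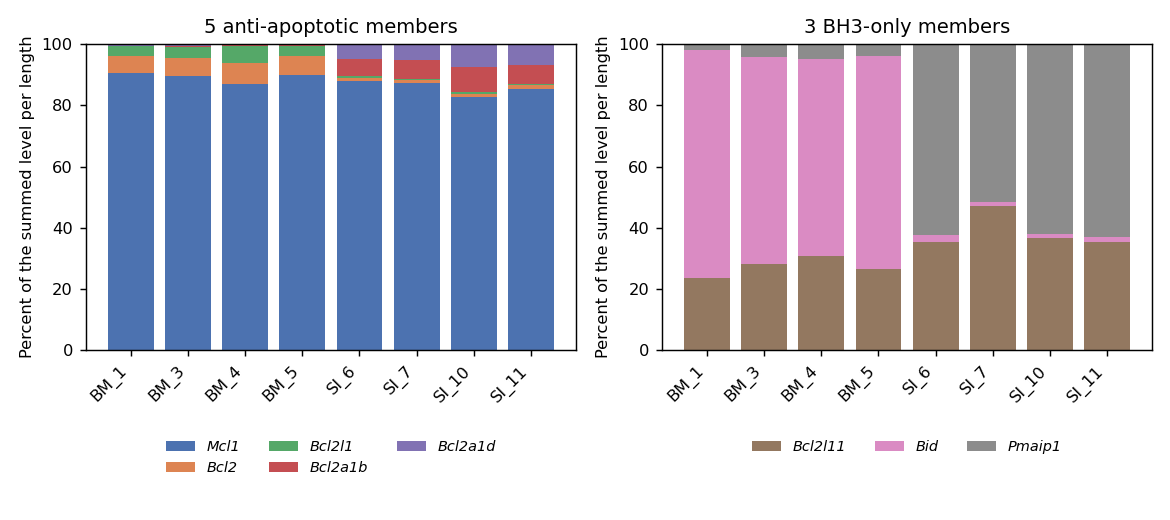
Share of each gene in the summed level per length (TPM, percent) of the 5 anti-apoptotic members (left) and of the 3 BH3-only members (right), with 1 bar per library. Mcl1 is the main anti-apoptotic part of every bar, and among BH3-only members Bid holds the largest share in every bone marrow library and Pmaip1 in every small intestine library.

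The effectors split, with Bak1 lower and Bax not distinguishable. Bak1 (chr17:27019810-27029009), which encodes the pore-former that sits in the mitochondrial membrane, had 1133, 994, 804 and 737 normalised counts in BM_1, BM_3, BM_4 and BM_5 and 441, 311, 272 and 390.0 in SI_6, SI_7, SI_10 and SI_11. The lowest bone marrow library stood above the highest small intestine library. The ratio of the bone marrow mean to the small intestine mean was 2.59, and the difference was -1.37 ± 0.24 (adjusted p = 0.00218). On the opposite strand, 2 entries of Ggnbp1 cover 18.2% and 7.35% of the exon bases of Bak1. The strand setting is not given in the sources used here, so reads in the overlap could have been counted for either gene. Bax (chr7:45461697-45466898), whose protein moves from the cytosol to the membrane when it is activated, had 214, 169, 179.9 and 153 normalised counts in bone marrow and 182, 194, 196 and 213 in small intestine. Its groups overlapped over most of their range. Its difference of 0.14 ± 0.18 did not pass (adjusted p = 0.569), and its sign turned to -0.76 after median-centring and to -0.11 on RPM, neither of which passed. The ratio of Bak1 to Bax per length, in which scaling cancels, was 3.47, 3.85, 2.93 and 3.15 in the bone marrow libraries and 1.58, 1.05, 0.911 and 1.20 in the small intestine libraries, with no overlap.

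The 3 BH3-only members went in opposite directions. Bcl2l11 (chr2:128126038-128162547), which encodes BIM, a binder of all the guardians, had 446, 523, 593 and 507 normalised counts in bone marrow and 6136, 10394, 10044 and 9577 in SI_6, SI_7, SI_10 and SI_11. All small intestine libraries were far above bone marrow, with SI_6 well below the other small intestine libraries. The ratio of the means was 17.5 and the difference 4.09 ± 0.23 (adjusted p = 5.30e-06). Without SI_6 the gene still passed, as it did under every other setting, with differences between 3.19 and 4.27.

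Pmaip1 (ENSMUSG00000024521), which encodes NOXA, a BH3-only protein that binds MCL-1 and A1 and leads MCL-1 to degradation, rose most among the members. It had 13.0, 26.1, 31.6 and 25.1 normalised counts in BM_1, BM_3, BM_4 and BM_5 and 3693, 3879, 5753 and 5806 in SI_6, SI_7, SI_10 and SI_11. The ratio of the means was 199.7, and the difference of 7.46 ± 0.30 (adjusted p = 1.05e-06) ranked 107th from the top among the 16215 well-covered genes. Bid (chr6:120891930-120916853), which links death receptors to mitochondria once caspase-8 has cut its protein, went the other way. Its normalised counts were 623, 552, 548 and 584 in bone marrow and 166, 137, 147 and 217 in small intestine, groups that lay well apart. The ratio of the bone marrow mean to the small intestine mean was 3.46, and the difference was -1.79 ± 0.20 (adjusted p = 0.000216). The neighbour Bcl2l13 on the opposite strand covers 17.7% of the exon bases of Bid, and the strand setting is not given in the sources used here, so reads in the overlap could have been counted for either gene. Bcl2l13 itself fell by less, by 0.75 ± 0.21 (adjusted p = 0.0235).

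The order of the members by level per length differed between the tissues. In bone marrow it ran Mcl1 (81.2 TPM), Bak1 (49.2), Bid (21.3), Bax (14.8), Bcl2l11 (8.51), Bcl2 (5.61), Bcl2l1 (3.47), Pmaip1 (1.17), Bcl2a1d (0.403) and Bcl2a1b (0.325). The ranges of neighbours overlapped for Bcl2 and Bcl2l1, for Pmaip1 and Bcl2a1d, and for the A1 copies. In small intestine it ran Mcl1 (848 TPM), Pmaip1 (275), Bcl2l11 (178), Bcl2a1b (65.8), Bcl2a1d (62.4), Bak1 (22.8), Bax (19.6), Bcl2 (10.2), Bid (7.28) and Bcl2l1 (4.88). Here the ranges overlapped for Pmaip1 and Bcl2l11, the A1 copies, Bak1 and Bax, Bcl2 and Bid, and Bid and Bcl2l1. Pmaip1 thus stood at place 8 of 10 in bone marrow and at place 2 in small intestine, and Bid at places 3 and 9. If reads with several matches were dropped in the counting, the levels of the A1 copies are too low and their places uncertain.

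Among the members, the summed levels of guardians and of BH3-only genes were both higher in small intestine, and the ratio of the sums moved less than either. These sums leave out the family genes outside the list, and their ratio can depend on that choice. The BH3-only gene Bnip3l had 81.2 TPM in bone marrow and 38.9 in small intestine. Of the guardians left out, Bcl2l2 had 15.5 and 6.24 TPM and Bcl2a1a 0.313 and 61.0. A ratio with these genes was not formed. The summed TPM of the 5 anti-apoptotic members was 3.24, 2.93, 2.71 and 2.94 times that of the 3 BH3-only members in the bone marrow libraries and 2.21, 2.32, 2.02 and 2.11 times in the small intestine libraries. The lowest bone marrow value was above the highest small intestine value, and the ranges also stayed apart with the longest transcript (1.94 to 2.26 and 1.66 to 1.82). Mcl1 was 9.82 ± 1.99 times Bcl2l11 in bone marrow and 4.87 ± 0.54 times in small intestine (SD, n = 4). For Mcl1 against Pmaip1 the bone marrow ratios were 145.0, 63.3, 49.0 and 68.1 and the small intestine ratios 3.11, 3.93, 2.70 and 2.86. Bcl2l11 was 0.399 ± 0.0676 times Bid in bone marrow and 24.9 ± 8.26 times in small intestine, the widest shift among the 8 ratios of members formed here. Within the BH3-only sum, Bid held 69.0% ± 4.20 in bone marrow and 1.65% ± 0.42 in small intestine, Pmaip1 3.72% ± 1.20 and 59.7% ± 5.45, and Bcl2l11 27.3% ± 3.04 and 38.6% ± 5.65. These are ratios of RNA and not of protein.

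SI_6 was the lowest small intestine library for Mcl1, Bcl2, Bcl2l1, Bcl2a1b, Bcl2a1d, Bcl2l11, Pmaip1 and Bax and the highest for Bak1. It was also the library with the most reads in epithelial markers (0.142%) and in proliferation genes (0.0549%), and whether these cells took part in its lower values was not tested. Without SI_6, 6 members were still higher and 2 lower, and the differences were 4.27 for Bcl2l11, 3.22 for Mcl1, 7.57 for Pmaip1, 0.69 for Bcl2 and -1.48 for Bak1.

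Of 16 family genes outside the list, 6 were higher in small intestine, 5 were lower and 5 did not pass (68.8% called, against 34.9% of all genes). Among the 10 with a mean of at least 10 reads, 3 were higher, 5 lower and 2 did not pass, beside 63.1% called of the well-covered genes. The others called higher had a mean of under 10 reads. Of the guardians, Bcl2l2 (BCL-W) fell in contrast to Mcl1 and the A1 copies, from 514, 492, 584 and 510.4 normalised counts to 297, 186, 105 and 129 in SI_6, SI_7, SI_10 and SI_11 (-1.64 ± 0.32, adjusted p = 0.00391). Per length it made up 14.5% of the anti-apoptotic RNA in bone marrow and 0.655% in small intestine when it was added to the sum. Among BH3-only genes, Bmf, whose protein senses loss of attachment, rose by 0.96 ± 0.23 (adjusted p = 0.0113), a rise that shrank to 0.06 after median-centring and 0.45 after quantile normalisation and then did not pass. Bad, which growth factor signals hold inactive, fell by 1.31 ± 0.30 (0.00873), and Bnip3l, a receptor for the removal of mitochondria, fell by 1.32 ± 0.18 (0.000620). Its relative Bnip3 had a difference of -0.38 ± 0.26 that did not pass (0.299). Hrk, a BH3-only gene named for its difference of 2.34 ± 0.48 (0.00539), rested on 0, 0, 0 and 1 reads in bone marrow and 5, 7, 21 and 2 in small intestine.

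Among distant relatives, Bcl2l14 rose by 2.15 ± 0.44 (adjusted p = 0.00532), from 3.26 to 5.36 normalised counts in bone marrow to 81.9 in SI_6 and 14.2 to 27.7 in the other small intestine libraries. These rest on 4 to 7 reads in each bone marrow library and 12 to 75 in each small intestine library, and the call was lost after quantile normalisation (1.28, adjusted p = 0.0643). Bcl2l15 reached 234.7 in SI_6 and 36.7 in SI_11, and its difference of 0.71 ± 0.51 did not pass (0.337) and turned to -0.19 after median-centring. Either gene was highest in SI_6 and next in SI_7, as the epithelial markers were, whose part was not tested, while SI_10 was above SI_11 for either gene and slightly below it for the markers. Bcl2l12 fell by 1.27 ± 0.38 (adjusted p = 0.0318) and Bcl2l13 by 0.75 ± 0.21 (0.0235). Bcl2l12 no longer passed without BM_1, BM_3, BM_4, SI_6, SI_7 or SI_10 (adjusted p from 0.0577 to 0.0884), nor Bcl2l13 without BM_1, BM_3 or BM_4 (0.0503 to 0.0645), so the count of lower genes was 3 without BM_1, BM_3 or BM_4.

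**Figure D4:**
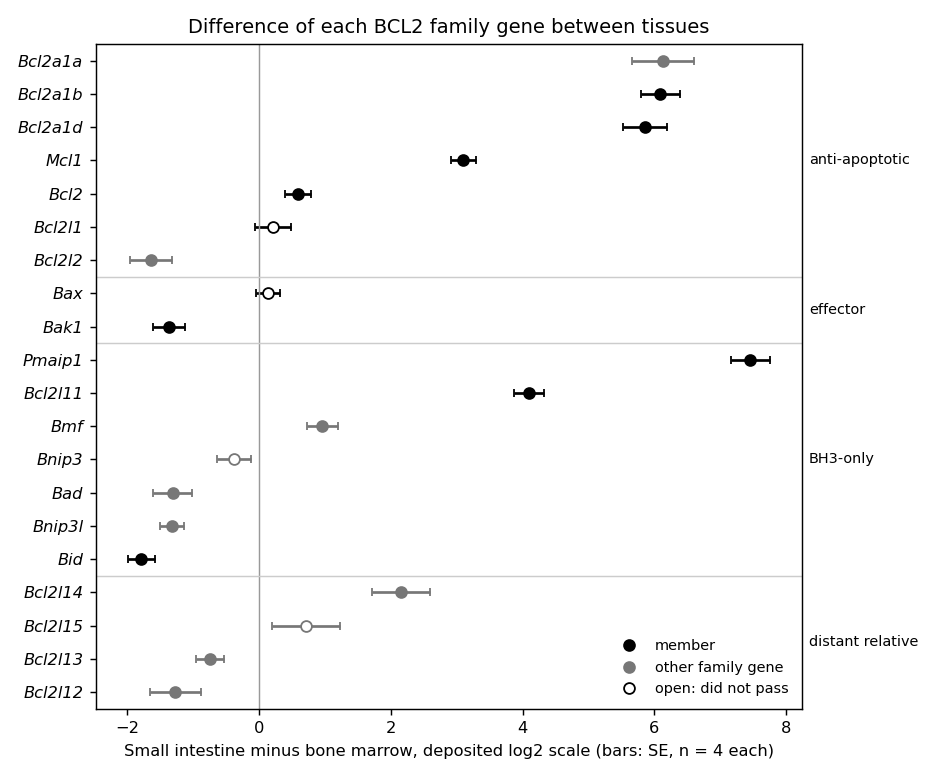
Difference between the tissues (log2, positive where small intestine is higher, bars SE, n = 4 libraries each) of the members in black and of the other well-covered family genes (mean of at least 10 reads) in grey, by role. Open points did not pass. The anti-apoptotic, BH3-only and distantly related genes each include passed genes on either side of 0, whereas of the effectors only Bak1, at -1.37, passed.

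Of 7 partners at the mitochondrial membrane (voltage-dependent channels, fusion and fission factors), 0 were higher by limma (0 also at an unadjusted p under 0.05, and 0 by voom) and 3 were lower, Vdac3, Vdac1 and Dnm1l, so 42.9% passed, against 63.1% of the well-covered genes. The count of lower genes was 5 after quantile normalisation and 6 under 5 other settings, voom among them, and it was 6 without BM_5 and 5 without SI_6. Of 16 genes of the apoptosome, caspases and their inhibitors (IAPs), 6 were higher, 5 lower and 5 did not pass (68.8% called, against 34.9% of all genes). Among the 15 with a mean of at least 10 reads, 6 were higher, 5 lower and 4 did not pass, beside 63.1% called of the well-covered genes. The lower count was 9 after median-centring and 8 after quantile normalisation and on RPM. Birc3, which encodes the inhibitor cIAP2 and is a known NF-kappaB target, had 461 to 563 normalised counts in bone marrow and 18426 to 25877 in small intestine, a difference of 5.44 ± 0.19 (adjusted p = 5.98e-07). Birc5 (survivin), which acts in dividing cells, fell by 4.16 ± 0.44 (0.000147), in the direction of the proliferation genes. Htra2, a protease that mitochondria release, fell by 2.58 ± 0.23 (6.46e-05).

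Upstream of Bid, 2 of 8 genes of the death receptor input were higher, 1 was lower and 5 did not pass, so 37.5% were called, against 63.1% of the well-covered genes. The receptors Fas and Tnfrsf10b rose by 3.83 ± 0.27 (adjusted p = 1.71e-05) and 2.87 ± 0.44 (0.00106), while their adaptor Fadd fell by 2.27 ± 0.33 (0.000838), from 378 to 428 normalised counts in bone marrow to 56.9 to 168 in small intestine. The count of lower genes was 2 without SI_7, SI_10 or SI_11, 3 without BM_5 and under 5 settings that kept all libraries, and 4 on RPM. Of 6 genes that act on MCL-1 turnover, 3 were higher, 1 was lower and 2 did not pass (66.7% called, beside 63.1% of the well-covered genes). Usp13, a deubiquitinase, had a difference of 2.63 ± 0.84 (adjusted p = 0.0395), but its groups overlapped through BM_5 (22.3 normalised counts, against 0 to 0.652 in the other bone marrow libraries and 13.0 to 51.4 in small intestine), and it passed in only 1 of the 8 fits without a library, the one without BM_5. Of 9 transcription factors known to act on family genes, 7 were higher, 1 was lower and 1 did not pass. This is 88.9% called, beside 63.1% of the well-covered genes, of which 34.6% were called higher. The list was chosen with earlier results of these data known, which limits this comparison. Foxo1 and Foxo3, known activators of Bcl2l11, rose by 3.44 ± 0.18 (3.18e-06) and 2.30 ± 0.19 (3.94e-05), and Nfkb1, a subunit of NF-kappaB, by 2.70 ± 0.23 (4.39e-05). The factor that was lower was Trp53, with a difference of -1.38 ± 0.20 (0.000860). Whether any of these factors acted on the members here was not tested. After median-centring, 3 of the 9 factors were higher.

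**Figure D5:**
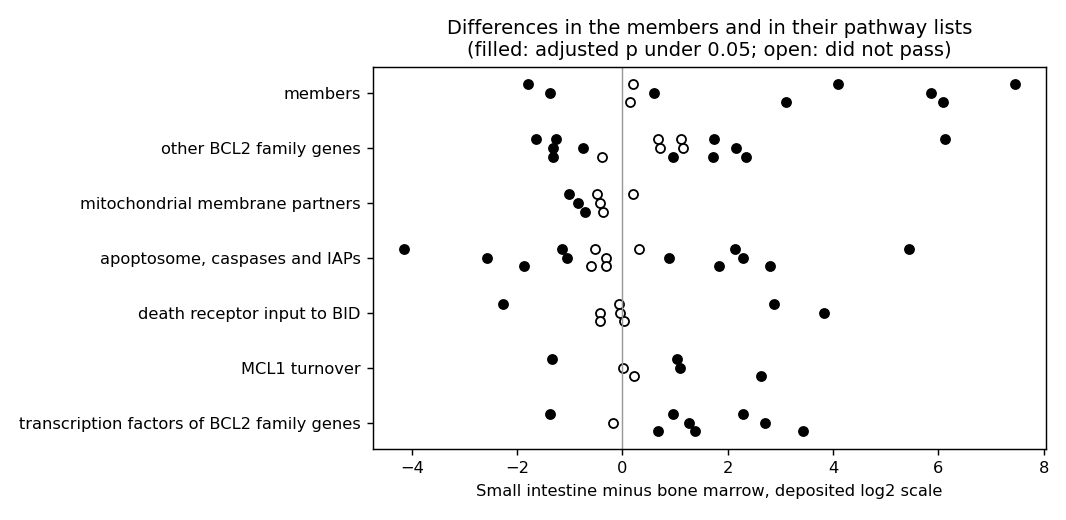
Difference between the tissues (log2, positive where small intestine is higher) of each gene of the members and of 6 pathway lists, with 1 point per gene. Filled points passed an adjusted p of 0.05, and of 10 members 6 lie to the right as passed and 2 to the left.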

How the data were processed

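RNA integrity, the NuGEN amplified cDNA libraries and single-end sequencing on an Illumina instrument are described in the study's methods. The authors aligned the reads to GRCm38 (Ensembl) with nf-core/rnaseq, counted them per gene and transformed them with DESeq2 in R 4.0.3, and the values they deposited are on a log2-like scale that compresses genes with few reads. Not given in the sources used here were the aligner, the strand setting and the rule for reads with several matches. The transformation was inverted to whole reads (tolerance 0.05, 100% of the genes), which gave 11508002 to 21289164 reads in genes per library. All gene identifiers were found in GENCODE M21. Tissues were compared on the deposited log2 values of all 8 libraries with limma (3.58.1, R 4.3.3), without covariates or a filter, 2-sided, adjusted over 38392 genes. The fit was tested on simulated data. TPM used the recovered reads and all exon bases of a gene, without a test. Tables and plots were made with Python 3.11.15 and matplotlib 3.10.9. No 2 libraries of a tissue agreed within counting noise.

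The members and lists were chosen with earlier results of these data known. Every member was named. Of each other list, genes with an adjusted p under 0.05 and a difference of at least 2 were named, at most the 4 largest, as was every other family gene with a mean of at least 10 reads. In the apoptosome list, 1 gene that this rule names is not reported here. Vdac1, Vdac3, Dnm1l, Trp53, Bcl2a1c and marker genes other than the most abundant were named after their values were seen. Alternatives were a filter on a mean deposited value of 5, median-centring, quantile normalisation, log2 of RPM with a pseudocount of 1, a trended robust prior, limma voom on recovered reads, leaving out each library and, added after seeing the data, centring on genes with at least 10 reads.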

Additional observations from a re-analysis of the deposited data

Results flagged for a closer look

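In 32 named genes and 2 tissues, 64 groups of 4 libraries were examined for a library set apart, that is, whose gap to its neighbour took most of the range of the group on the deposited scale. There were 6 such groups, and about 3.2 are set apart by chance. Among the members only Bcl2l11 had one, where SI_6 (6136 normalised counts, against 9577 to 10394 in the other small intestine libraries) left a gap of 0.845 of the range. Nfkb1 was likewise lowest in SI_6 (6893 normalised counts, against 10824 to 11646), with 0.861. Bad was highest in BM_1 (243 normalised counts, against 162 to 168 in the other bone marrow libraries), with 0.903. Foxo1 was highest in BM_1 (88.1 against 74.3 to 75.3), with 0.925. Fadd was lowest in BM_5 (378 against 420 to 428), with 0.837. Hrk had 1 read in BM_5 and 0 in the other bone marrow libraries, which gives 1.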

How the results depend on the processing

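No paired analysis was possible because the labels number the bone marrow and small intestine samples separately and the groups share no replicate number. Of the 28 named genes that passed, 21 kept their direction and stayed past the threshold under all 15 other settings, 7 of the 8 called members among them. The exceptions were Bcl2, Hrk, Bcl2l14 (after quantile normalisation), Bmf, Bcl2l12, Bcl2l13 and Usp13, and the cause was not tested. Median-centring over all genes reversed Bcl2 (-0.30), Bcl2l1 (-0.69), Bax (-0.76) and Bcl2l15 (-0.19), and RPM reversed Bcl2l1 (-0.041) and Bax (-0.11), none of them passing. Among the other family genes, the higher count of 6 became 2 with the filter on a mean deposited value of 5 and after quantile normalisation, and 3 after median-centring, and leaving out a library gave 3 to 5 lower genes. For the membrane partners, the lower count of 3 became 6 with the filter, median-centring, RPM, the trended robust prior and voom, 5 after quantile normalisation, and 2 to 6 when a library was left out. The lower count of the apoptosome list became 9 after median-centring and 8 after quantile normalisation and on RPM. For the death receptor input, the lower count of 1 became 3 with the filter, median-centring, quantile normalisation, the trended robust prior and voom, 4 on RPM, and 1 to 3 when a library was left out. In MCL1 turnover, 1 gene was higher after median-centring and 2 were lower after quantile normalisation. Of the transcription factors, 3 were higher after median-centring. Across all genes, the number called ran from 9164 with the filter to 15311 with voom, against 13402. With the longest transcript as length, the shares of the anti-apoptotic sum became 7.46% in bone marrow and 1.32% in small intestine for Bcl2, 6.46% and 0.857% for Bcl2l1, and 85.3% in bone marrow for Mcl1. With Bcl2a1a and Bcl2l2 added, chosen after seeing the data, they became 5.22% for Bcl2 in bone marrow, and 76.1% in bone marrow and 80.4% in small intestine for Mcl1. Depth limits Bcl2a1b, Bcl2a1d and Pmaip1 in bone marrow most, with 1 to 3, 1 to 7 and 17 to 40 reads per library.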

Other observations

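The remaining marker lists took small shares of the reads. Fibroblast and endothelial markers were higher in small intestine for 7 of 7 genes (0.00279 to 0.00371% of the reads in bone marrow and 0.0501 to 0.0570% in small intestine), with Pecam1 the most abundant in either tissue. Most of this share was Pecam1, with a mean of 8162 normalised counts in small intestine, against means from 34.3 (Pdgfra) to 123 (Col3a1) for the others. Erythroid markers were lower for 6 of 6 genes (0.00559 to 0.00736% and 0.000262 to 0.000762%). Of 7 B and plasma cell markers, 2 were higher and 2 lower (0.00178 to 0.00320% and 0.00300 to 0.0180%), led by Jchain in small intestine. Of 6 mast cell and basophil markers, 1 was higher and 2 were lower (0.00118 to 0.00171% and 0.00412 to 0.00647%), and Mcpt4 was at 0 in bone marrow. The higher gene was Gata2, which made up most of the small intestine share, its mean normalised count going from 34.3 to 842. The lower genes were Mcpt8, whose mean went from 109 to 2.46, and Cpa3, from 37.9 to 13.9. Mcpt4, Fcer1a and Tpsb2 did not pass, with means of at most 2.65 in either tissue. T cell markers were at most 0.000645% in any library, with 1 of 6 higher.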
